A study of Mus musculus with 15 samples.

Results

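The piRNAs described here are those of mouse testis that matched DNA transposons outside the hAT superfamily. Their loci were taken as every interval and strand in the deposited count files whose repeat class began with DNA and whose family did not begin with hAT. This gave 5535 of 8128951 piRNA loci, and 316501 counts, or 0.0798% of all counts and 0.541% of the counts at annotated repeats. They fell into 9 families and 27 repeat names. The 47084 loci of hAT elements were left out.

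piRNAs are small RNAs of the animal germ line that are bound by PIWI proteins and guide the silencing of transposable elements. In the adult mouse testis most come from long precursor transcripts of so-called piRNA clusters, are processed from a 5′ end that usually carries uridine, and are bound by MILI (shorter piRNAs) or MIWI (longer piRNAs). Tc1/mariner (TcMar) elements are cut-and-paste DNA transposons that move through a transposase. Tigger elements, the short non-autonomous MER2 elements and the mariner-derived MARNA elements are old members of this superfamily that no longer move in the mouse.

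Small RNA was sequenced from testes of male C57Bl/6 mice aged 8 weeks, with no mutation or drug treatment named for any animal, in 15 libraries that form 5 groups of 3. In one experiment RNA was treated with CMC, a carbodiimide that binds pseudouridine (Ψ) and stops reverse transcription, or mock treated (called untreated in the sample titles). In the other, an antibody against Ψ was used for immunoprecipitation (Ψ-IP), and the starting RNA (input) and the unbound RNA (flow-through) were sequenced too. A small RNA that carries Ψ would be lost from CMC libraries relative to mock and gained in Ψ-IP relative to input or flow-through, and each comparison asked which DNA transposon piRNAs did so. The CMC and Ψ-IP sets were made with kits of different makers, so kit and experiment cannot be told apart between the sets. The sets also differ in the lengths they hold: the mock and CMC files have no counts above 33 nt, whereas those of the Ψ-IP experiment reach 44 nt, so shares of an insertion there include longer RNAs.

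Libraries of the CMC experiment held between 24154811 and 58399368 counts and those of the Ψ-IP experiment between 11575705 and 25063656. Between 699 and 1771 of the 5535 loci were seen in a library, and 148 were seen in all 15. Of the others, 2615 were seen in a single library and 2076 had 1 count in all, whereas the 805 loci with more than 20 counts over the 15 libraries held 94.7% of the counts. Whether libraries of a group came from separate animals is not given in the labels, so p-values measure the spread between these libraries, which may be technical. In bulk testis, fewer cells of a type and less RNA per cell cannot be told apart. The files hold piRNA loci only, and marker genes of testis cell types were not analysed here.

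Loci that lay within 500 bases of each other and carried the same repeat name were merged into stretches, each standing for 1 insertion. Sequence was available for stretches inside annotated exons, which held 1218 of the 5535 loci (22.0%) but only 2.22% of the counts, because the 3 most abundant insertions are intronic or intergenic. The sequences shown are the genomic sequence (GRCm38, the same assembly as mm10, read from GENCODE M21 transcripts) of abundant loci in insertions that changed in a comparison, with MARE10 as the exception in its first base. The capital letter marks the base at the 5′ end of the piRNA.
MARNA in Mrs2, chr13:24989602-24989631, minus strand: Tagatttttgttggtgagtagtgtagctgg
MARNA in Mrs2, chr13:24989605-24989634, minus strand: Ttttagatttttgttggtgagtagtgtagc
Tigger15a in Dcaf10, chr4:45378196-45378225, plus strand: Tccatatatatgacttctgtttagataact
MARE10 in Cbx5, chr15:103198054-103198082, minus strand: Agtaatgagaggaatggatggagtgcttc

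The pair of MARNA piRNAs overlap almost entirely and start 3 bases apart. The first had 72, 104 and 87 counts in mock, 70, 34 and 32 with CMC, and at most 10 in a library of the Ψ-IP experiment. Counts in this paragraph are raw, and library totals differ. The mock libraries held 35618956, 58399368 and 40063216 counts, and the CMC libraries 48909154, 24154811 and 27342628. The Tigger15a piRNA had 13, 15 and 18 counts in the input, 10, 9 and 33 in Ψ-IP and 0, 1 and 0 in the flow-through, and at most 4 in a library of the CMC experiment. Over the loci with sequence, 85.7% of counts and 78.6% of loci began with T (uridine in the RNA), against 38.3% T over positions 2 to 14 of the same loci. Adenine at position 10, the mark of secondary piRNAs cut by the ping-pong cycle, was at 25.9% of counts and 27.2% over positions 2 to 14. The first base differed between insertions: 90.2% of counts began with T at MARNA, 91.3% at Tigger15a, 95.9% at MER124 and 42.5% at MARE10, where the 5′ end of the locus shown above held 53.1% of the counts of the insertion and is an adenine.

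TcMar-Tigger held 312209 counts at 4856 loci, which was 98.6% of all counts described here. TcMar-Mariner followed with 3449 counts at 387 loci. The other families were rare: the group spelled DNA# in the files had 317 counts, Crypton 216, TcMar-Tc2 144, unclassified DNA 126, Merlin 34, PIF-Harbinger 5 and PiggyBac# 1. The last 3 were too rare to test with CMC, and of them only Merlin could be tested against the input.

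The counts were concentrated further, on single insertions. Of 52 stretches, 3 held 95.9% of the counts and 3099 of the loci. The first was a MER2 at chr12:98438586-98438902 (mm10) with 167826 counts (53.0%), in an intron of Kcnk10, which encodes a leak potassium channel. It was followed by a Tigger19a at chr14:24092525-24092704 with 114978 counts (36.3%) and a Tigger19b at chr2:92589519-92589583 with 20763 counts (6.56%), both between annotated genes. The next were a MARNA at chr13:24989579-24989749 with 3222 counts, in the 3′ UTR of Mrs2, a mitochondrial magnesium channel gene, a Tigger19a at chr6:127840473-127840584 with 1919 counts and a MER2 at chr7:73149463-73149688 with 1069 counts, both between genes. The name of a repeat family therefore stands here for very few places in the genome.

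Nearly all piRNAs of an insertion came from 1 strand. More than 95% of the counts were on a single strand in 49 of 52 stretches, and in 20 of the 20 with at least 100 counts. The plus strand held 99.96% of counts at the MER2 on chromosome 12, with 74 counts on the other strand, and 99.96% at the Tigger19a on chromosome 14, with 49. It held 97.5% at the Tigger19b on chromosome 2, with 525 counts on the minus strand. Relative to genes, 15 stretches with 6772 counts lay in 3′ UTRs, and in all 15 the piRNAs had the strand of the mRNA. Of the 16 stretches within introns, 9 gave piRNAs on the strand of the gene and 7 on the opposite strand, the MER2 in Kcnk10 among the latter. The other stretches comprised 18 between genes and 3 in other exons. A listed piRNA cluster contained 46 of the 52 stretches, but 99.99% of all counts in the files lie in the 647 clusters that the study used to define piRNA reads, so this is a property of the files.

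**Figure D1:**
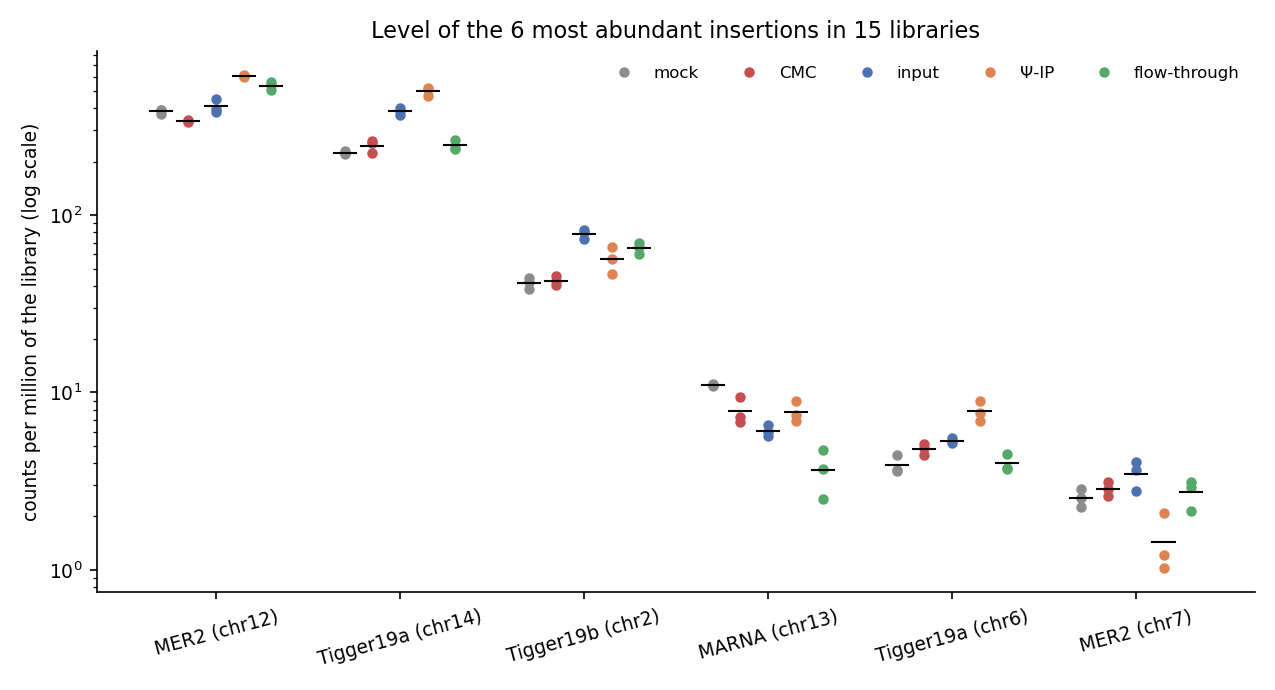
Level of the 6 most abundant insertions in each library, in CPM, which are counts per 1000000 counts of the library, on a log axis, with the mean of 3 libraries as a bar. By group mean, MER2 on chromosome 12 lies highest in every group, with single libraries from 336 to 614 CPM. MER2 on chromosome 7 lies lowest, from 1.03 to 4.03. In input replicate 3 the Tigger19a on chromosome 14 lies above the former, and in flow-through replicate 1 MARNA lies below the latter.

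The level of an insertion was expressed as CPM, the counts per 1000000 counts of its library. All loci together took 686, 667 and 695 CPM in the mock libraries, 642, 659 and 673 in the CMC libraries, 902, 935 and 897 in the input, 1207, 1185 and 1227 in Ψ-IP and 832, 871 and 929 in the flow-through. The Ψ-IP libraries were thus all above the input and flow-through libraries, and the CMC and mock libraries overlapped. The mean was 911 ± 20.5 CPM in the input (SD, n = 3) and 1207 ± 21.2 in Ψ-IP, a difference of 295 with p = 0.1 in a two-sided exact permutation test, the smallest value that 3 against 3 libraries allow. From mock to CMC the difference was -24.4 CPM (exact permutation p = 0.2). Each CMC library lay below the mock library of the same number, a pairing that this test does not use. With every locus given the same weight, the difference between Ψ-IP and input was -8.98 loci of these per 1000000 loci seen (exact permutation p = 0.6), so the difference in CPM was one of counts at loci.

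The first comparison asked which of these piRNAs were depleted by CMC. Few were: of the insertions tested only the MARNA in Mrs2 fell, and of the repeat names only MER2. MARNA stood at 11.1, 11 and 10.8 CPM in mock and at 9.49, 7.24 and 6.80 CPM with CMC, so that the groups did not overlap. Its fitted log2 fold change was -0.50 ± 0.11 (SE, edgeR quasi-likelihood test, Benjamini-Hochberg adjusted p = 0.00842), and all 9 pairs of a CMC and a mock library had the same direction. With 26 stretches tested this was 1 call, beside 1.89% called among the stretches of all repeats. The call was lost without mock replicate 1, 2 or 3 (adjusted p = 0.0199, 0.0575 and 0.0481) and without CMC replicate 2 or 3 (0.0639 and 0.0325), and kept without CMC replicate 1, while the fold change stayed below 0 in each fit. It was also lost when loci were merged within 100 bases (0.0114) and among stretches averaging 50 counts or more (0.0225).

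MER2 summed over its insertions stood at 397, 376 and 393 CPM in mock and 350, 340 and 343 CPM with CMC, with no overlap. The change was small, -0.20 ± 0.04 on the log2 scale (edgeR adjusted p = 0.00579), and was the only call among 19 repeat names, beside 5.6% of all names. Without any of the 3 mock libraries, or without CMC replicate 2 or 3, the adjusted p lay between 0.0108 and 0.0325. The dominant MER2 on chromosome 12, at 392, 372 and 389 CPM in mock against 345, 336 and 338 with CMC, had a log2 fold change of -0.23 ± 0.06 (adjusted p = 0.0214). Same-numbered CMC and mock libraries deviated together, and with replicate number as a block this insertion passed the threshold (adjusted p = 0.00498), as did the name MARNA (0.00513, against 0.0193 without the block) and the family TcMar-Mariner (0.0015, against 0.0444).

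The other dominant insertions were not called with CMC. The Tigger19a on chromosome 14 stood at 223, 222 and 230 CPM in mock and 225, 254 and 262 with CMC (log2 fold change 0.08 ± 0.06, adjusted p = 0.597). The Tigger19b on chromosome 2, at 38.1, 41.8 and 44.2 CPM against 40.2, 42.3 and 45.5, had a fold change of -0.01 ± 0.07 (adjusted p = 0.968). None of the 6 families tested was called by edgeR, beside 5.71% of all families (2 of 35), and none by DESeq2, while 1 family had an unadjusted p under 0.05. TcMar-Tigger itself had a log2 fold change of -0.04 ± 0.04 (adjusted p = 0.536).

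The second comparison set Ψ-IP against its input. The most abundant insertions moved apart: MER2 on chromosome 12 and both Tigger19a insertions rose, whereas Tigger19b on chromosome 2 and the MER2 on chromosome 7 fell. MER2 on chromosome 12 stood at 397, 449 and 383 CPM in the input and 600, 614 and 609 CPM in Ψ-IP, which gave 0.62 ± 0.08 as log2 fold change (edgeR adjusted p = 1.18e-06). The Tigger19a on chromosome 14 stood at 385, 368 and 400 CPM in the input and 517, 469 and 520 in Ψ-IP (0.43 ± 0.08, adjusted p = 0.000129). The much less abundant Tigger19a on chromosome 6 went from 5.55, 5.19 and 5.30 CPM to 8.91, 6.91 and 7.65 (0.59 ± 0.15, adjusted p = 0.00531). For each of these 3 insertions every Ψ-IP library was above every input library.

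The opposite direction was seen at 2 other insertions, 1 of them also a MER2. Tigger19b on chromosome 2 fell from 80.4, 81.9 and 73.8 CPM to 46.8, 66.5 and 56.6 (log2 fold change -0.43 ± 0.11, adjusted p = 0.00544). MER2 on chromosome 7 fell from 4.03, 2.78 and 3.66 CPM to 1.03, 1.21 and 2.09 (-1.13 ± 0.26, adjusted p = 0.00161). The 2 MER2 insertions thus changed in opposite directions in the same libraries, each with no overlap between groups. MARNA, at 5.98, 5.67 and 6.52 CPM against 8.99, 6.91 and 7.44, had a fold change of 0.40 ± 0.15 that did not pass the test (adjusted p = 0.0592).

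These 5 insertions, 3 higher and 2 lower, were the calls among 27 stretches tested, beside 16.1% of all stretches. Of 19 repeat names 2 were called, MER2 (0.58 ± 0.07, adjusted p = 5.13e-05) and Tigger19a (0.41 ± 0.06, adjusted p = 0.000169), beside 21.5% of all names. Tigger19b as a name lay at the threshold (-0.45, adjusted p = 0.0101) and was called lower by DESeq2, with DESeq2 size factors, with no filter on low counts, among names averaging 50 counts or more, among loci of 24 to 33 nt, without Ψ-IP replicate 2 and with the replicate block (adjusted p = 0.006). Of 7 families TcMar-Tigger alone was called (0.43 ± 0.04, adjusted p = 4.76e-05), beside 29.4% of all families, and its level is set by the dominant insertions. The calls at chromosomes 2 and 6 were lost without any 1 of the input libraries or without Ψ-IP replicate 1 or 3, with an adjusted p from 0.016 to 0.049 for Tigger19b and from 0.0136 to 0.0298 for Tigger19a (0.0171 with no filter on low counts), and that of the MER2 on chromosome 7 without input replicate 1 or 3 (0.0335 and 0.0125).

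The third comparison set the bound against the unbound RNA, and here the called insertions all stood higher in Ψ-IP. Since Ψ-IP libraries serve in both comparisons, these values are not independent of those above. The Tigger19a on chromosome 14 stood at 237, 239 and 266 CPM in the flow-through, and its Ψ-IP libraries (517, 469 and 520 CPM) exceeded these by 1.22 ± 0.09 on the log2 scale (adjusted p = 3.7e-08). MER2 on chromosome 12 stood at 505, 540 and 565 CPM in the flow-through, above its own input, and Ψ-IP exceeded the flow-through by less (0.38 ± 0.09, adjusted p = 0.00384). That call was lost without Ψ-IP replicate 2 or 3 or flow-through replicate 2 (adjusted p = 0.0144, 0.015 and 0.0196). The fitted changes of stretches exceed those in CPM, because the normalization factors differed between the groups. They were 1.09, 1.04 and 1.08 for the flow-through and 0.951, 0.922 and 0.927 for Ψ-IP.

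Among the less abundant insertions, 4 were called higher in bound than in unbound RNA. MARNA stood at 2.51, 4.75 and 3.70 CPM in the flow-through against 8.99, 6.91 and 7.44 in Ψ-IP (log2 fold change 1.29 ± 0.24, adjusted p = 0.000398). The Tigger19a on chromosome 6 stood at 3.77, 4.48 and 3.70 CPM against 8.91, 6.91 and 7.65 (1.17 ± 0.20, adjusted p = 0.000185). Tigger15a in the 3′ UTR of Dcaf10, a ubiquitin ligase substrate receptor, stood at 0.279, 0.809 and 1.40 CPM against 3.68, 3.02 and 3.63 (2.32 ± 0.41, adjusted p = 0.000243). MER124 in the 3′ UTR of Slc5a3, a sodium and myo-inositol cotransporter gene, stood at 0.140, 0.324 and 0.140 CPM against 2.83, 0.950 and 0.543 (2.92 ± 0.68, adjusted p = 0.00331), with 1 Ψ-IP library well above the others. Tigger19b on chromosome 2 had a fold change of -0.00 ± 0.13 (adjusted p = 0.995) and MER2 on chromosome 7 of -0.65 ± 0.33 (adjusted p = 0.156).

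In all 6 of 24 stretches were called, 6 higher and 0 lower, beside 18.8% of all stretches. The split of that share by direction is not given here. Over all single loci, calls in this comparison also were more often higher (10.8%) than lower (5.12%). The same comparison called 4 of 16 repeat names, namely Tigger19a, MARNA, Tigger15a and MER124, beside 38.5% of all names, and 2 of 6 families, TcMar-Tigger (0.45 ± 0.05, adjusted p = 4.84e-05) and TcMar-Mariner (1.10 ± 0.26, adjusted p = 0.00342), beside 57.6% of all families. MER2 as a name gave 0.20 ± 0.06 (adjusted p = 0.0224), although its dominant insertion held 167826 counts and the next largest only 1069. The 2 values thus come from nearly the same counts, and only that of the stretch passed. Each level of summing was normalised on its own. In the fit of names the factors were 1.00, 1.00 and 1.02 for the flow-through and 1.02, 0.978 and 0.990 for Ψ-IP. The call of TcMar-Mariner was lost without Ψ-IP replicate 2 (adjusted p = 0.0126), and that of the name MER124 without any 1 of the flow-through libraries or Ψ-IP replicate 1 or 2 (from 0.0181 to 0.0562). The titles name each unbound library as the flow-through of an IP, and with replicate number as a block the names MARNA (adjusted p = 0.0131) and MER124 (0.0167) no longer passed, which left Tigger19a and Tigger15a. MER124 also did not pass with DESeq2 size factors (0.0117) or among loci of 24 to 33 nt (0.0116). With the block the family DNA# (0.00527, against 0.0471) and the MER2 at chr17:66724243-66724467 (0.0023, against 0.0116) passed, the latter named here after its values were seen.

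**Figure D2:**
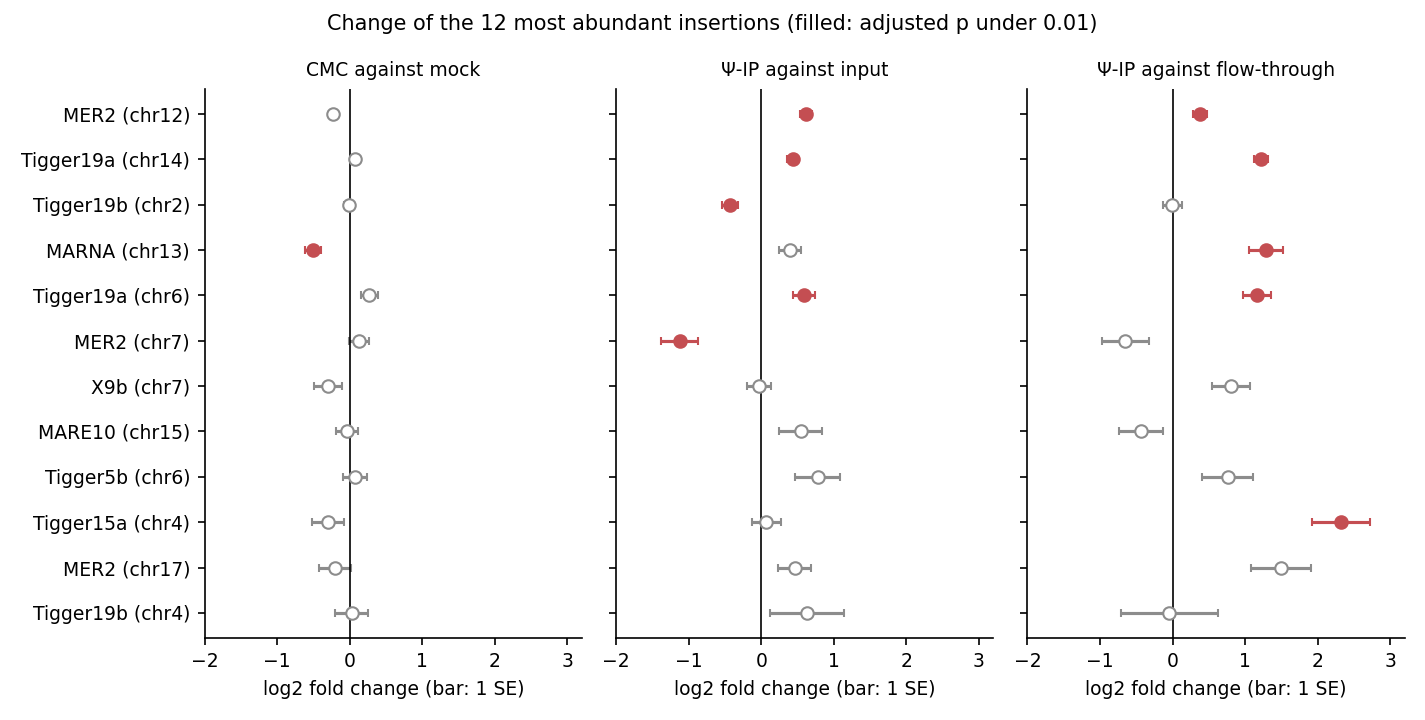
Log2 fold change of the 12 most abundant insertions in the 3 comparisons, with bars of 1 SE and filled points where the adjusted p was under 0.01. With CMC only MARNA is filled, at -0.50, whereas against the input 5 points are filled on both sides of 0 and against the flow-through the filled points lie between 0.38 and 2.32.

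In the fits without a replicate block, MARNA was the only insertion called in both experiments, lower with CMC and higher in Ψ-IP than in the flow-through. Both calls need not concern the same piRNAs, because its main 5′ ends differed between the experiments. The ends at 24989631 and 24989634 took 32.3% and 20.7% of its counts in mock but 7.22% and 6.66% in Ψ-IP. The end at 24989692 took 0.0519% in mock but 15.1% in the input and 26.96% in Ψ-IP. The end at 24989636 was closer, at 14.9% in mock and 10.6% in Ψ-IP. The piRNAs of MARNA were compared with those of its surroundings, the other loci within 5 kb on either side. MARNA counts were 21.8% of the flank counts in mock and 15.4% with CMC (log2 difference -0.51, exact permutation p = 0.1), while the log2 change of the flanks was 0.01. In Ψ-IP, by contrast, the flanks themselves stood 0.41 above the input on the log2 scale, and the ratios of MARNA to its flanks were close (5.97% against 5.78%, exact permutation p = 0.6). Against the flow-through both parts moved, with 0.31 for the flanks and 0.82 for the ratio (exact permutation p = 0.1).

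Against the input, the fold changes of the 3 dominant insertions were larger in size than those of their flanks. MER2 on chromosome 12 was 17.6% of its flanks in the input and 27% in Ψ-IP, a log2 difference of 0.62 while the flanks changed by -0.05. It was 17.1% in mock and 14.9% with CMC (-0.20, with 0.02 for the flanks). The Tigger19a on chromosome 14 was 3.65% of its flanks in the input and 4.87% in Ψ-IP (0.41, with -0.03 for the flanks), and the Tigger19b on chromosome 2 was 0.882% and 0.637% (-0.48, with -0.01 for the flanks). Each of these differences had p = 0.1 in the exact permutation test, the smallest possible. For the Tigger19a on chromosome 6 the flanks stood higher in Ψ-IP by 0.46 and the ratio by 0.08 (exact permutation p = 0.5), but with flanks of 10 kb these values were 0.23 and 0.31 (exact permutation p = 0.1).

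Within an insertion the piRNAs began at few positions. At MER2 on chromosome 12 the 5′ ends at 3 of 255 positions held more than 50% of all counts, at the Tigger19a on chromosome 14 at 4 of 171, and at the Tigger19b on chromosome 2 at 2 of 65. Which positions these were differed between the experiments. At MER2 the end at 98438844 took 32.3% of the counts in mock and 33.4% with CMC but 7.13% in the input, 8.43% in Ψ-IP and 6.27% in the flow-through. The end at 98438701 took 6.13% and 8.12% in mock and CMC but 15.3%, 16.7% and 17.0% in the other groups.

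The main ends also differed between experiments at Tigger19a and Tigger19b. On chromosome 14 the end at 24092605, where the most frequent length was 25 nt, took 45.4% of the counts in both mock and CMC and 2.17% in the input, and the ends at 24092651 and 24092645 took 0.421% and 0.237% in mock but 23.6% and 19.1% in the input. On chromosome 2 the end at 92589532 took 8.78% in mock and 59.3% in the input, and the end at 92589550 took 47.7% and 9.28%. The same insertion thus gave different main piRNAs in the CMC and Ψ-IP experiments.

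**Figure D3:**
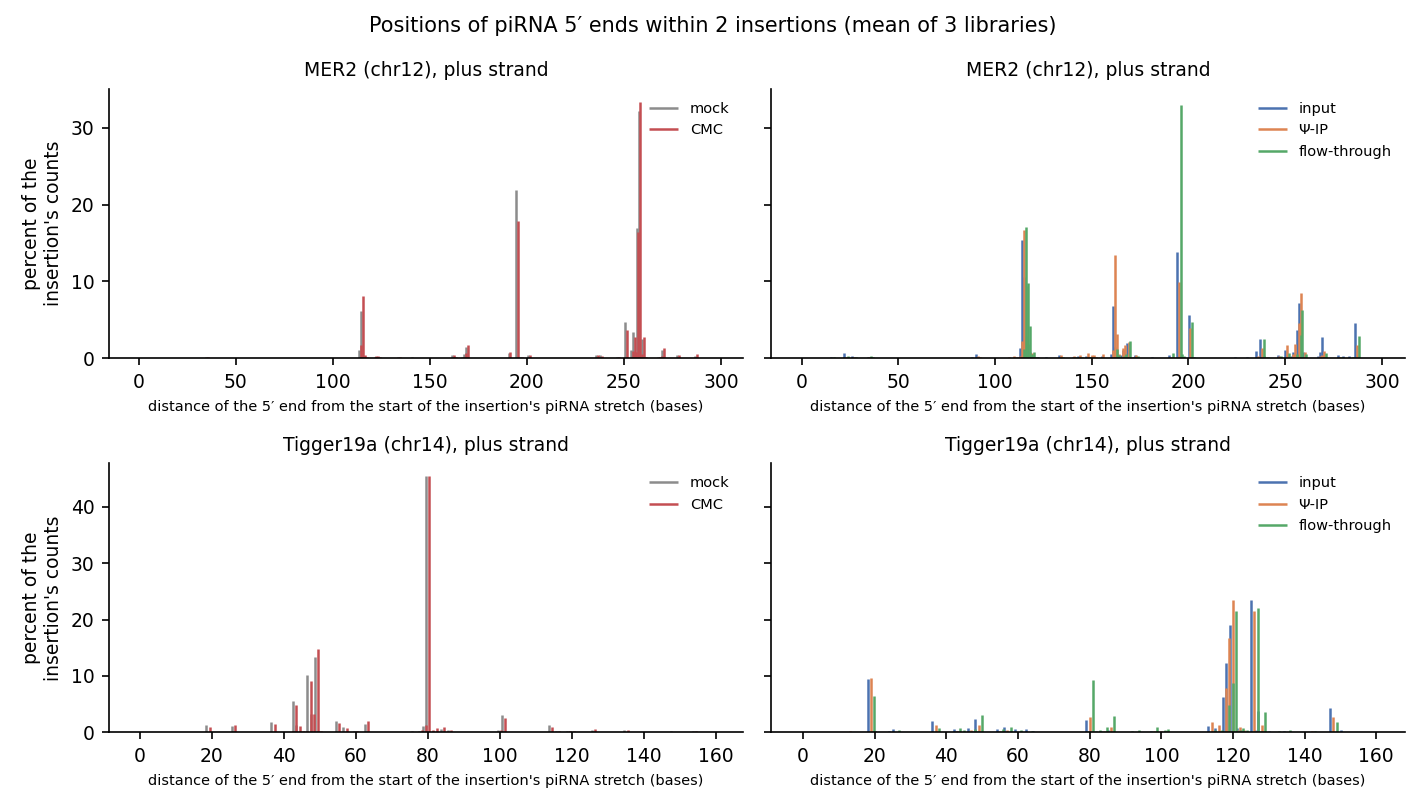
Share of the counts of an insertion that began at each position, as the mean of 3 libraries, for MER2 on chromosome 12 and Tigger19a on chromosome 14, with the CMC experiment on the left and the Ψ-IP experiment on the right. Positions are distances in bases from the start of the stretch of loci. The tallest line for Tigger19a lies at 80 bases in mock and CMC (45.4%), where the input has 2.17%, and the tallest in the flow-through for MER2 lies at 195 bases (33%).

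Neighbouring piRNAs of 1 insertion differed in their direction in Ψ-IP. For this the counts of all lengths that share a 5′ end were summed and tested, here at MER2 on chromosome 12. The end at 98438748 stood at 29.9, 30.5 and 23.1 CPM in the input, 89.1, 84.7 and 70.1 in Ψ-IP and 4.23, 6.47 and 8.60 in the flow-through. It was higher in Ψ-IP than in the input by 1.57 ± 0.18 on the log2 scale (adjusted p = 3.53e-08) and higher than in the flow-through by 3.90 ± 0.26 (adjusted p = 9.69e-13). Its share of the insertion was 13.4% in bound and 1.19% in unbound RNA. The adjoining end at 98438749 gave 1.67 ± 0.20 and 3.60 ± 0.29.

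The end at 98438781, 33 bases further on, did the reverse against the flow-through. It stood at 49.9, 68.6 and 52.8 CPM in the input, 53.1, 52.9 and 73.6 in Ψ-IP and 173, 187 and 170 in the flow-through. Its log2 fold change against the input was 0.10 ± 0.19 (adjusted p = 0.715) and against the flow-through -1.33 ± 0.21 (adjusted p = 1.21e-05). A single insertion thus held piRNAs that were called higher in the bound fraction beside one that was called higher in the unbound fraction. The end at 98438856 was lower in Ψ-IP than in the input, at 3.08, 7.69 and 5.01 CPM against 10.7, 12.3 and 11.1 (-1.08 ± 0.25, adjusted p = 0.000813).

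**Figure D4:**
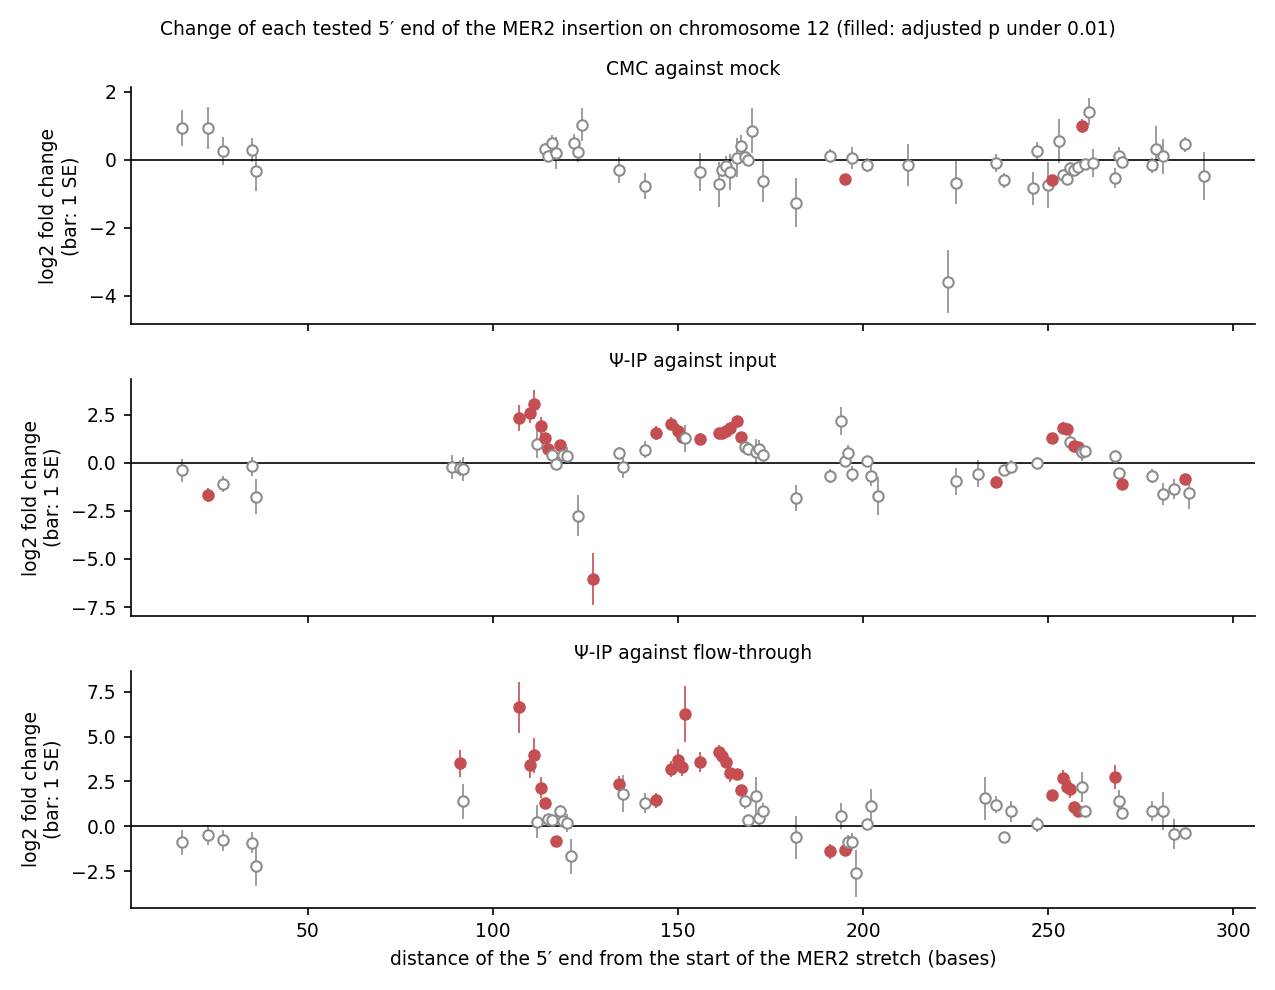
Log2 fold change of each 5′ end tested at MER2 on chromosome 12 against its distance in bases from the start of the stretch, with bars of 1 SE and filled points where the adjusted p was under 0.01. Against the input 23 ends are filled above 0 and 5 below, against the flow-through 26 and 3, and with CMC 1 and 2.

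Over all 5′ ends of the DNA transposons, 33 were higher and 16 lower in Ψ-IP than in the input among 187 tested, beside 23.3% called among all 5′ ends. Against the flow-through 43 were higher and 3 lower of 160, beside 19.6%. On chromosome 14 the end at 24092645 rose from 75.8, 65.9 and 78.7 CPM in the input to 115, 103 and 137 in Ψ-IP (0.71 ± 0.18, adjusted p = 0.00178, and from 0.0118 to 0.02 without any 1 input library or Ψ-IP replicate 3, and 0.0219 with the filter at 5 counts), whereas the end at 24092653, 8 bases away, fell from 16.5, 12.6 and 14 CPM to 6.77, 7.34 and 6.56 (-1.04 ± 0.21, adjusted p = 0.000172). Tigger19a had 8 ends higher and 7 lower of 56 against the input, and 11 higher and 0 lower of 47 against the flow-through. How the calls over all 5′ ends divided by direction is not given here. On chromosome 2 the end at 92589544 fell from 5.59, 4.89 and 5.83 CPM to 3.08, 1.38 and 1.88 (-1.36 ± 0.27, adjusted p = 0.000183).

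With CMC 6 of 187 ends were called, 3 higher and 3 lower, beside 2.2% of all 5′ ends. Each of the 3 that fell lay in MER2 on chromosome 12 or in MARNA. The MER2 end at 98438781, described above, fell from 85.6, 78.4 and 89.0 CPM in mock to 65.9, 65.0 and 51.0 with CMC (-0.57 ± 0.12, adjusted p = 0.00174). The end at 98438837 fell from 17.6, 18.0 and 18.2 CPM to 13.8, 12.1 and 11.9 (-0.60 ± 0.12, adjusted p = 0.00167), and the MARNA end at 24989634 from 2.50, 2.45 and 1.90 to 1.64, 0.787 and 0.914 (-1.03 ± 0.22, adjusted p = 0.00331). In each case the groups did not overlap. Each call was lost without some single library, with an adjusted p from 0.0103 to 0.0247 for 98438781 (mock replicate 1 or 3 or CMC replicate 3), from 0.0114 to 0.0207 for 98438837 (mock or CMC replicate 2 or 3) and from 0.0154 to 0.0562 for 24989634 (mock replicate 1 or 2 or CMC replicate 2 or 3, and 0.0157 among features averaging 50 counts or more).

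The end at 98438837 was also higher in Ψ-IP, at 8.82, 9.07 and 12.5 CPM against 4.59, 3.74 and 4.50 in the input (1.28 ± 0.23, adjusted p = 3.7e-05) and 2.61, 3.78 and 4.47 in the flow-through (1.74 ± 0.29, adjusted p = 1.99e-05). The end at 98438781 was not, as given above. The end at 98438841 had the directions of 98438837, with 1.73 ± 0.24 against the input (adjusted p = 7e-07) and -0.55 ± 0.14 with CMC, which passed with the replicate block only (adjusted p = 0.00596, against 0.0122). Of the ends that rose with CMC, the one at 98438845 went from 0.842, 0.736 and 1.12 CPM to 1.92, 2.07 and 1.68 (0.99 ± 0.22, adjusted p = 0.00353, and from 0.0163 to 0.0759 without mock or CMC replicate 1 or 2, and 0.0164 by DESeq2), next to the abundant end at 98438844 (121, 122 and 129 CPM in mock, and 120, 106 and 114 with CMC, adjusted p = 0.312).

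At the level of single loci, the deposited unit, 468 of 5535 had enough counts to be tested with CMC, 414 against the input and 361 against the flow-through. With CMC 3 were higher and 3 lower, beside 1.07% and 0.667% of all loci, whereas DESeq2 called 0 higher and 3 lower (0.651% and 0.489% of all loci), as did edgeR over the 83 loci averaging 50 counts or more (2.66% and 2.81%). Against the input 49 were higher and 28 lower, beside 7.12% and 12.8%, and against the flow-through 86 were higher and 12 lower, beside 10.8% and 5.12%. The median log2 fold change was 0.29 against the input and 0.75 against the flow-through, where that of all tested loci was -0.09 and -0.15, and -0.01 with CMC beside -0.00. Against the input the balance depended on the filter on low counts: over the 923 loci with more than 5 counts, 28 were higher and 35 lower, beside 1.89% and 6.24% of all loci, and the median was -0.06, beside -0.27 over all loci tested. Against the flow-through the same filter gave 88 higher and 9 lower of 818, beside 4.38% and 1.45%, with a median of 0.66, beside -0.21 over all loci. Loci of 1 insertion overlap and are not independent, and MER2 on chromosome 12 alone had 212 of the 414 loci tested against the input, 34 higher and 14 lower.

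Among called loci averaging 50 counts or more, the largest rise against the flow-through was at MER2, chr12:98438748-98438777, a 30 nt piRNA with 513, 493 and 842 counts in Ψ-IP, 271, 232 and 172 in the input and 33, 49 and 52 in the flow-through (4.16 ± 0.30, adjusted p = 2.68e-12). The largest fall was at chr12:98438703-98438733, a 31 nt piRNA with 11, 8 and 18 counts in Ψ-IP and 186, 115 and 81 in the flow-through (-2.92 ± 0.38, adjusted p = 2.98e-07). The piRNA at chr12:98438781-98438809 was the most abundant of all, with 17177 counts, and fell with CMC (-0.62 ± 0.13, adjusted p = 0.0012, and 0.012, 0.0138 and 0.0198 without mock replicate 2, mock replicate 3 or CMC replicate 3). It also was lower in Ψ-IP than in the flow-through (-1.46 ± 0.23, adjusted p = 8.96e-06).

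The lengths of DNA transposon piRNAs followed the dominant insertions. In mock, 26.1% ± 0.87 of their counts (SD, n = 3) were 25 to 27 nt long, the range bound by MILI, and 47.8% ± 1.65 were 29 to 31 nt, the range bound by MIWI, whereas over all piRNA loci these shares were 19.2% and 60.1%. In the input they were 10.1% ± 0.41 and 70.3% ± 0.50, beside 13.7% and 67.2% over all loci. The most frequent length was 29 nt in the 6 libraries of the CMC experiment and 30 nt in the 9 others, and 30 nt over all loci in each of the 15 libraries. Among the 3 dominant insertions in mock, the Tigger19a on chromosome 14 had 39.1% of its counts at 25 to 27 nt, against 18.7% for MER2 on chromosome 12 and 21.8% for the Tigger19b.

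From mock to CMC the share at 25 to 27 nt differed by 2.51 percentage points, at 28.6% ± 0.79 with CMC, and the share at 29 to 31 nt by -3.66 points, at 44.1% ± 1.95, each with an exact permutation p of 0.1, the smallest possible. Over all loci the same differences were 1.46 and -2.44 points. From input to Ψ-IP the differences had the other sign, with -2.58 and 2.09 points (exact permutation p = 0.1 for both), beside -1.13 and 1.87 over all loci. The difference at 29 to 31 nt was 1.06 points (exact permutation p = 0.2) among loci with more than 20 counts over the 15 libraries. Without MER2 on chromosome 12 it was 1.69 points in Ψ-IP (exact permutation p = 0.2) and -2.38 with CMC (exact permutation p = 0.3). With each locus counted once the CMC differences were 0.214 points at 25 to 27 nt (exact permutation p = 0.9) and 0.878 at 29 to 31 nt (p = 0.4), and those of Ψ-IP were -1.68 and 4.10 (exact permutation p = 0.1 for both). Leaving out MER2 on chromosome 12, the share at 25 to 27 nt was 35.5% in mock, 10.9% in the input and 7.35% in Ψ-IP.

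**Figure D5:**
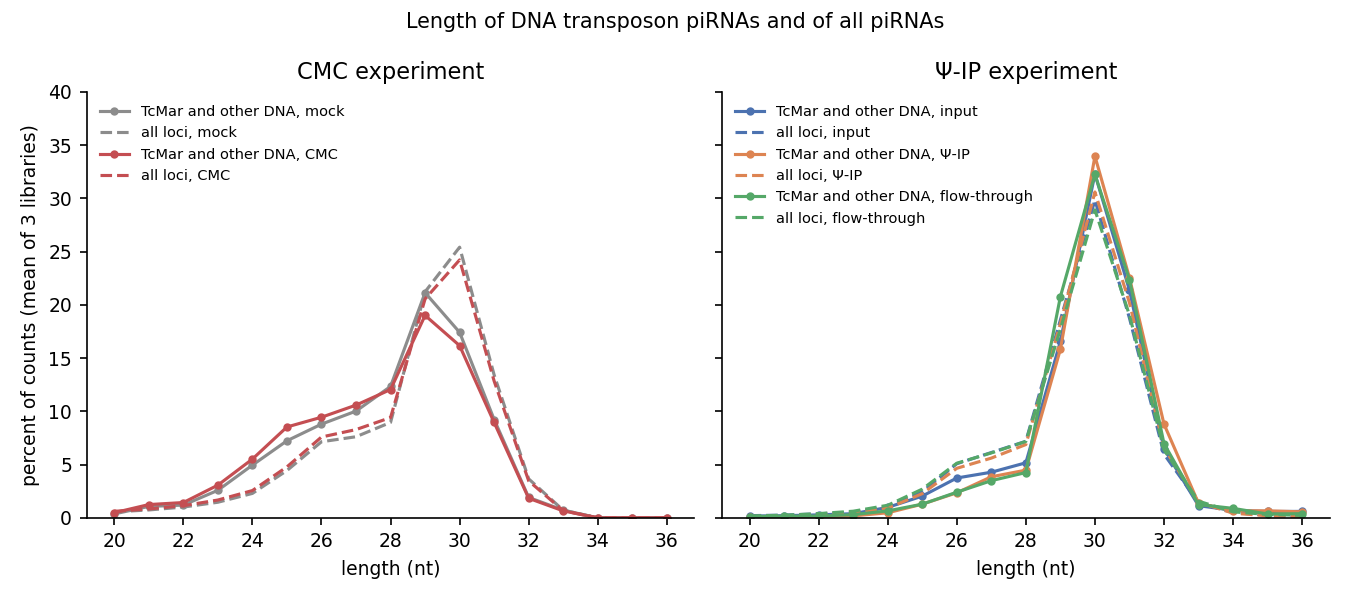
Share of counts at each length in nt, as the mean of 3 libraries, for the DNA transposon loci (points and solid lines) and for all piRNA loci (dashed lines), in the CMC experiment on the left and the Ψ-IP experiment on the right. In mock and CMC the solid lines peak at 29 nt and lie above the dashed lines from 21 to 28 nt, and in the Ψ-IP experiment both peak at 30 nt.

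Secondary piRNAs made by the ping-pong cycle overlap their partner on the other strand by 10 bases at the 5′ ends. Among pairs of opposite DNA transposon loci that overlapped by 1 to 20 bases, weighted by the product of counts, 10-base overlaps held 23.8% on average in the input, 5.27% in mock, 2.89% in CMC, 5.96% in Ψ-IP and 8.37% in the flow-through. In single libraries they held 23.1, 25.5 and 22.8% in the input and from 0 to 23.5% elsewhere. So weighted, the most frequent overlap was that of 12 bases in each mock and CMC library (58.8% and 48.8% on average). With each pair counted once, 12 bases held only 4.95% and 8.2% there, and 20 bases held 14.5% and 13.7%. By product of counts, 19 bases were the most frequent in each Ψ-IP library (69.7% on average, with 100% in replicate 2). The most frequent overlap was 10 bases in input replicates 1 and 2 and 19 bases in input replicate 3 (30.1%). It differed between the flow-through libraries, with 20 bases in replicate 1 (91.7%) and 3 in replicate 3 (35.5%). In flow-through replicate 2 it was 16 bases, at 23.53% against 23.51% for 10 bases. For LTR loci 10 bases were the most frequent overlap in all 15 libraries, at 33.5% ± 2.02 (SD). For LINE loci they were so in the 9 libraries of the Ψ-IP experiment (34.2% in the input), whereas in mock and CMC the 2-base overlap was more frequent (19.8% and 18.4%, against 9.21% and 14.1% for 10 bases). With each pair counted once the mean 10-base share over the 15 libraries was 8.74% for DNA transposons, against 12.1% for LINE and 12.8% for LTR. By group it was 11.5% in the input, 8.23% in mock, 7.42% in CMC, 6.97% in Ψ-IP (0 in replicate 2) and 9.56% in the flow-through. So counted, 10 bases were the most frequent overlap in each input library (11.6, 10.1 and 12.9%), beside a mean of 11.3% for LINE in the input. Few counts on the opposite strand stand behind these values, as given above for the dominant insertions.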

How the data were processed

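The 15 libraries, their groups and replicate numbers were taken from the labels. Per the labels and the methods, the authors clipped adapters with Cutadapt, mapped reads that were not tRNA fragments to mm10 with Bowtie2, allowed up to 3 mismatches, and intersected alignments with annotated repeats and piRNA clusters using bedtools. They deposited raw, unnormalised counts of reads per interval and strand, 1 table per library. How reads with several alignments were counted is not given in the sources used here, and such reads could be shared between copies of a repeat.

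Counts were joined by locus and summed by 5′ end, stretch (loci of 1 repeat name merged within 500 bases), repeat name and family. Each comparison used its 6 libraries. Features with more than 20 counts over these were tested over the whole table with edgeR 4.0.16 in R 4.3.3 (TMM normalization on library totals, quasi-likelihood test), called at a Benjamini-Hochberg adjusted p below 0.01. DESeq2 1.42.0 was an alternative. SEs were obtained from the F statistic, as the absolute log2 fold change over its square root. The fits were tested on simulated data. Single values were compared with two-sided exact permutation tests, for which 3 against 3 libraries cannot give p below 0.1.

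Replicates differed by more than sampling noise (chi-square per locus from 2.13 to 8.40), so each library counted once. Deviations from group means correlated at 0.124, 0.147 and 0.293 between same-numbered CMC and mock libraries over 87755 loci averaging 50 counts or more, and the numbers were read as pairs there, although CMC replicate 2 correlated more with mock replicate 1 (0.23) than with its own number. The pairing rests on the shared numbers in the labels and this check.

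Named items were every family, the 8 most abundant repeat names and the called ones (at most 6 per comparison), the 6 most abundant stretches, and the 5 most abundant loci and 5′ ends. Added to these were the 3 largest rises and 3 largest falls per comparison among called features averaging 50 counts or more that moved the same way in all 9 pairs of libraries. Members, lists and tests were chosen with earlier results of these data known. The sums by 5′ end and the ratio to flanks were added after the data were seen.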

Additional observations from a re-analysis of the deposited data

How the results depend on the processing

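Below, numbers of called families, names, stretches, loci or 5′ ends are compared with those of the report, and the cause of a change was not tested. At an adjusted p below 0.05 the CMC comparison had 1 family, 2 names, 2 stretches, 18 loci and 12 5′ ends, beside 17.1, 11.6, 4.27, 3.27 and 4.21% of all features, and Ψ-IP against input had 4 names, 131 loci and 74 ends, beside 32.2, 32.3 and 35.6%. With an average of at least 50 counts CMC had 0 stretches, 3 loci and 3 ends (all features: 3.66, 5.47 and 5.61%), Ψ-IP against input 34 loci and 24 ends (53.6 and 54.6%), and Ψ-IP against flow-through 2 names, 35 loci and 22 ends (56.7, 54.1 and 53.7%). For CMC, DESeq2 gave 2 names, 2 stretches and 3 loci (8.58, 2.55 and 1.14%), no filter on low counts gave 2 names (6.61%), and merging within 100 bases gave 0 stretches (1.66%).

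With the replicate block, CMC had 1 family, 2 names and 2 stretches, all named in the report. Pairing was taken where every same-numbered correlation was over 0.1, which held for CMC only. For Ψ-IP, same-numbered libraries correlated at 0.254, 0.303 and -0.031 with the input and at 0.0913, 0.182 and -0.045 with the flow-through, not every library correlated best with its own number, as in the CMC set, and the block left 2 names against the flow-through, Tigger19a and Tigger15a.

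With 1 library left out in turn, CMC had 0 to 1 families, 0 to 2 names, 0 to 2 stretches, 1 to 9 loci and 3 to 9 ends, with fewer loci (1 to 2) and ends (3) without mock or CMC replicate 2, mock replicate 1 or CMC replicate 3. Ψ-IP against input had 2 to 3 names, 2 to 6 stretches, 34 to 80 loci and 28 to 48 ends, with 34, 45 and 39 loci without input replicate 1, 2 or 3, and 28 and 29 ends without input replicate 1 or 3. All loci called fell alongside, to 12.2, 15.8 and 12.7%, and all ends to 16.3 and 16.8%. Ψ-IP against flow-through had 1 to 3 families, 3 to 4 names, 5 to 6 stretches, 63 to 94 loci and 34 to 45 ends, with 63 loci without Ψ-IP replicate 3. The difference in the summed level ranged from -32.3 to -16.4 CPM with CMC and from 285 to 307 against the input. That in the share at 25 to 27 nt ranged from 2.02 to 2.86 and from -2.77 to -2.26 points, and at 29 to 31 nt from -4.54 to -2.56 and from 1.48 to 2.58.

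With each locus counted once, Ψ-IP minus input turned to -8.98 loci per 1000000 loci and the CMC difference at 29 to 31 nt to 0.878 points, while that at 25 to 27 nt was 0.214. With the filter at 5 counts, the median log2 fold change of loci against the input turned to -0.06. Among single features the sign turned only where the test had not passed. With CMC, unclassified DNA gave 0.014 by DESeq2, 0.082 with the replicate block and from -0.36 to 0.49 without any 1 library, and Tigger19b on chromosome 2 gave 0.0061 with an average of at least 50 counts and from -0.061 to 0.043 without any 1 library. The same range with CMC was -0.42 to 0.054 for Crypton and -0.039 to 0.070 for the name Tigger19b. Against the input it was -0.18 to 1.26 for DNA# and -1.22 to 0.028 for Crypton, with the sign turned without Ψ-IP replicate 1, and for Tigger19b on chromosome 2 against the flow-through it was -0.15 to 0.12. The ratio of MER2 on chromosome 7 to flanks of 10 kb turned to 0.17 with CMC. Of the other values for single features, 1206 kept their direction and side of the threshold, 117 no longer passed and 24 newly passed. Whether depth limited the calls for rare families and insertions was not tested.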
